A study of Mus musculus with 47 samples.

Results

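The integrin genes Itgae, Itgam, Itgax, Itgal, Itga4, Itgav, Itgb1, Itgb2 and Itgb7 were followed through mouse dendritic cells (DCs) and their progenitors. These 9 genes, 6 alpha chains and 3 beta chains that DCs are known for, were chosen by symbol from the 21000 genes of each library and all 9 were found in every library. RNA-seq libraries were made from 47 samples in 17 groups. The locus under study was Irf8, which encodes a transcription factor of DC development, and the deleted elements were enhancers 32 kb and 56 kb downstream of its start.

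The 3 groups of rescue cDC1 (type 1 classical DCs) came from lineage-negative cells: d+32 cells (lacking the 32 kb enhancer) rescued with IRF8, d+56 cells (lacking the 56 kb enhancer) rescued with IRF8, and WT cells labelled MSCV, the name of a retroviral vector. Pre-cDC1, the progenitors committed to cDC1, were grown with Flt3L from d+32, d+32het (heterozygous for that deletion), d+56het (heterozygous for the 56 kb deletion) and WT marrow. WT cultures with Flt3L also gave monocyte-DC progenitors (MDP), common DC progenitors (CDP), cDC1, pre-cDC2 and cDC2. Primary WT cells were MDP, CDP and pre-cDC1 from marrow and pre-cDC1 and cDC1 from spleen. Each group had 3 libraries, except primary CDP and primary splenic cDC1 with 1 each. The design text calls the replicates biological and speaks of duplicates, while the labels number 3 in most groups and name no animals or cultures, so a p-value here speaks only of how far these libraries spread.

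Integrins are adhesion receptors made of an alpha and a beta chain, and the alpha chain largely sets the ligand. Beta 2 (Itgb2, CD18) is the shared partner of alpha L (Itgal, CD11a), alpha M (Itgam, CD11b) and alpha X (Itgax, CD11c), while beta 7 pairs with alpha E (Itgae, CD103) and alpha 4. CD11c marks DCs in general, CD11b marks cDC2 and many other myeloid cells, and CD103 marks a part of the cDC1, where it binds E-cadherin on epithelium.

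Library totals ran from 14660655 to 43084069 expected counts (median 28884353). Cultured cDC1 and cDC2 showed markers of their labels, with Xcr1, a chemokine receptor of cDC1, at 64.9 ± 11.8 CPM (counts scaled to library size, with TMM factors over all 47 libraries) in cultured cDC1 and 4.50 ± 1.41 CPM in cultured cDC2 (SD, n = 3 each). In cultured pre-cDC1, Xcr1 was low in the enhancer-deleted genotypes, at 0.983 ± 0.347 CPM in d+32, 5.45 ± 4.82 CPM in d+32het and 2.62 ± 0.230 CPM in d+56het, against 41.0 ± 3.05 CPM in WT. Primary marrow pre-cDC1 also had little Xcr1, 0.778 ± 0.516 CPM, while their summed cDC1 markers were 411 to 456 CPM, against 94.1 to 106 CPM in primary MDP. Sirpa, a cDC2 surface marker, was 1506 ± 180 CPM in d+32 and 201 ± 10.45 CPM in WT. In the WT cultures, 4 libraries carry conflicting labels: replicates 1 and 2 of cDC1 and pre-cDC2 have the other cell type in the title. They are placed here by file name, and each integrin call that rests on them was repeated without them and by title. Group means, orders, correlations and list genes are by file name only. Xcr1 in cultured cDC1 was 36.8 ± 18.2 CPM by title (SD, n = 3) and 57.4 CPM in replicate 3 alone. Without them, cDC1 and pre-cDC2 have 1 library each, which is assumed to vary like the other groups. The 2 libraries filed as cDC1 had summed cDC1 markers of 4720 and 4670 CPM, against 4390 CPM in replicate 3 of cDC1, and the 2 filed as pre-cDC2 had 1740 and 1780 CPM, against 2960 CPM in replicate 3 of pre-cDC2.

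Counts per base of transcript had an upper limit in genes with 1 transcript. Their 99th percentile was 0.994 in the median library, over 12351 genes, against 15.6 for the 7766 genes with 2 or more coding transcripts. Itgb7 (median 1.16 counts per base) lay at that limit and Itgb2 (0.911) near it, with 44 and 34 of 47 libraries over 0.8, and Itgb1 (0.629) lay not far below it. Itgb2 has noncoding transcripts beside its 1 coding transcript. Over the 349 genes of that class, the 99th percentile was 1.2 in the median library. Itga4 stayed at or below 0.26 and Itgav at or below 0.0946, whereas Itgae, Itgam, Itgax and Itgal, which have 2 to 4 coding transcripts, reached 2.44, 5.71, 1.73 and 6.85. A level near the limit can hide a difference, and its CPM then moves with the library total, so equal values of Itgb2 and Itgb7 do not show equal expression. The cause of the limit was not tested.

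**Figure D1:**
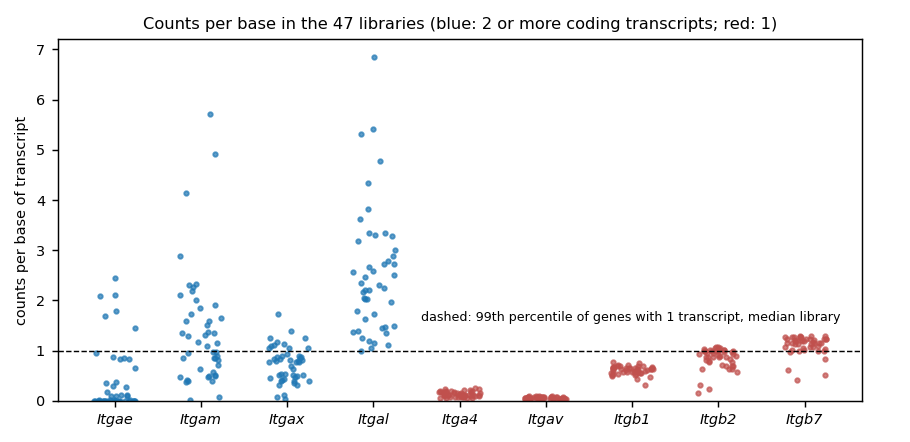
Counts per base of transcript (vertical axis) for each integrin gene, 1 point per library, in blue for genes with 2 or more coding transcripts and in red for genes with 1. Itgb2 and Itgb7 crowd at the dashed line, the 99th percentile of genes with 1 transcript, while Itgal reaches 6.85 counts per base.

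The alpha chains are encoded on 3 chromosomes in the RefSeq annotation of GRCm38.p6. Itgal (chr7:127296139-127335137), Itgam (chr7:128062640-128118491) and Itgax (chr7:128129526-128150657) lie in the same direction on the plus strand, with Itgax next to Itgam. Itga4 is at chr2:79255426-79333114, Itgav at chr2:83722303-83806917 and Itgae at chr11:73090505-73147449, all on the plus strand. The beta chains Itgb1 (chr8:128685654-128733579, plus), Itgb2 (chr10:77530329-77565708, plus) and Itgb7 (chr15:102215994-102233405, minus) are unlinked. The promoters of the neighbours Itgam and Itgax are shown because Itgam was called in all 3 deletion genotypes and Itgax in none, in 300 bases of RefSeq sequence (GRCm38.p6, plus strand, 250 bases before and 50 after the start that the sequence table uses, which for Itgax lies inside the gene's span given above). Capitals mark GAGGAA, a purine-rich word of PU.1-type sites, on either strand (TTCCTC when read on the plus strand), and TGANTCA, the AP-1 word.
Itgam: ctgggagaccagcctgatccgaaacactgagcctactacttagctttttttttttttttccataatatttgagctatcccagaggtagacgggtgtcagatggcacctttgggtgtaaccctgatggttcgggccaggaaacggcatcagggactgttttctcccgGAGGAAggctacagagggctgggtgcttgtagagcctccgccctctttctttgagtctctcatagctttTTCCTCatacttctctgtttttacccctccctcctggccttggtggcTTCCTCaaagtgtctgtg
Itgax: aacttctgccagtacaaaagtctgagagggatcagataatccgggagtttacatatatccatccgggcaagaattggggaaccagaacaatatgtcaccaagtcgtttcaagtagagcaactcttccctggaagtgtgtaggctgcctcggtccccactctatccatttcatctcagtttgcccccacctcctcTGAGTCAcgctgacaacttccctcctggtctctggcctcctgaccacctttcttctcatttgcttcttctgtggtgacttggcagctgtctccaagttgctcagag
The Itgam window at chr7:128062390-128062689 held GAGGAA 3 times and the Itgax window at chr7:128129300-128129599 held TGANTCA 1 time. On both strands, GAGGAA was in 28.28% of 32851 promoters of this length and in 4 of the 6 integrin promoters in the table, and TGANTCA in 7.81% and in 1 of 6. The IRF (ISRE) word, in 3.44% of all promoters, and the ETS-IRF composite (EICE) word, in 2.72%, were searched too and were in none of the 6. These are matches of letters in a short window and show no binding.

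Per length, Itgal had the highest level of the 9 in WT pre-cDC1, though Itgb7 and Itgb2 were at or near the limit on counts there, so their rank against Itgal is not known. Mean levels there were 93.2 CPM per kb for Itgal, 46.4 for Itgb7, 36.9 for Itgb2, 35.9 for Itgam, 31.2 for Itgax, 24.5 for Itgb1, 9.24 for Itgae, 4.26 for Itga4 and 2.73 for Itgav. In cultured cDC2, Itgam was at 158.5 CPM per kb. The single library of primary splenic cDC1 had 209 CPM per kb of Itgal and 52.8 CPM per kb of Itgax.

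The genes differed widely in how far their group means spread. Itgam ran over 374-fold, between 742 CPM in cultured cDC2 and 1.985 CPM in splenic cDC1, and Itgax over 28.2-fold, between 214 CPM in splenic cDC1 and 7.57 CPM in primary MDP. Itgal spanned 5.13-fold, between 1092 CPM in splenic cDC1 and 213 CPM in d+32 pre-cDC1, and Itga4 4.96-fold, between 92.2 CPM in splenic pre-cDC1 and 18.6 CPM in primary CDP. Itgb1 spanned only 1.77-fold. Splenic cDC1 and primary CDP, which set 1 end of the first 4 spans, are 1 library each. Among groups of 3 libraries, Itgam was lowest in primary MDP (33.6 CPM) and Itgax highest in d+32het pre-cDC1 (165 CPM). Itgal was highest among them in splenic pre-cDC1 (593 CPM) and Itga4 lowest in primary MDP (20.9 CPM). With the 17 groups in order of their means, few neighbours were separated beyond the range of their libraries: 4 of 16 pairs for Itgae, Itgam, Itgax and Itgb2, 5 for Itga4 and Itgb7, 2 for Itgal and Itgb1 and 0 for Itgav. Some of these pairs hold primary CDP or splenic cDC1, whose 1 library gives no range, so that they separate more easily. For Itgam, cDC2 over d+32 pre-cDC1 was the only separated pair without them.

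**Figure D2:**
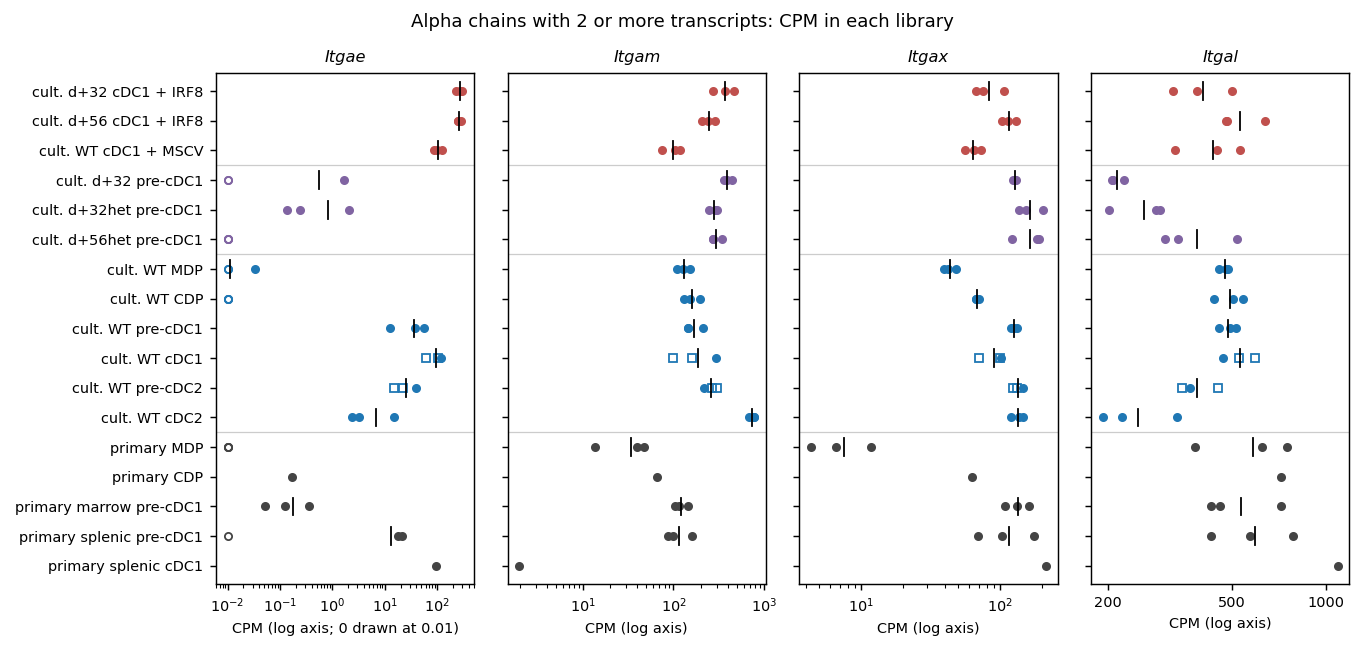
CPM on log axes in each of the 47 libraries, by group, for the 4 alpha chains with 2 or more coding transcripts; vertical bars are group means, open squares are the 4 libraries whose title and file name differ, and open circles are libraries at 0. Red is IRF8-rescued and MSCV cDC1, purple enhancer-deleted pre-cDC1, blue WT cultures and black primary cells; Itgam peaks in cDC2, where Itgal is near its lowest.

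Itgae, the alpha chain of CD103, was nearly absent in pre-cDC1 of all 3 deletion genotypes. It had 0, 0 and 1.66 CPM in d+32 pre-cDC1, 2.10, 0.133 and 0.243 CPM in d+32het, and 0 CPM in all 3 d+56het libraries, against 37.1, 57.1 and 12.4 CPM in WT. No library of any deletion genotype overlapped the WT range. The d+56het libraries held 0 counts against 2840 in WT, at least 927-fold lower with a floor of 3 counts over the group, which covers counting error only. The call was made for d+56het (edgeR's quasi-likelihood test, Benjamini-Hochberg adjusted p = 0.0234), and it ended without WT replicate 1, WT replicate 2, d+56het replicate 1 or d+56het replicate 3 (adjusted p 0.0519 to 0.0716). The log2 differences of d+32 (-6.02, SE 1.88, edgeR adjusted p = 0.143) and d+32het (-5.42, edgeR adjusted p = 0.161) did not pass, though DESeq2 called both (adjusted p = 0.0166 and 0.0353). With all 47 libraries in 1 fit edgeR called both too (adjusted p = 0.00431 and 0.00864), and with only the groups compared it called d+32 (adjusted p = 0.0382). In 10 of 13 alternatives for d+32 and 11 of 13 for d+32het the difference stayed uncalled. In bulk samples, fewer cells with Itgae and less Itgae RNA per cell cannot be told apart. Irf8 itself, the locus of the deletions, ran from 469 to 535 CPM in d+32, from 1122 to 1318 CPM in d+32het and from 925 to 1104 CPM in d+56het, against 3312 to 3601 CPM in WT.

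Itgam was higher in pre-cDC1 of every deletion genotype than in WT. It had 359, 387 and 440 CPM in d+32, 290.5, 247.5 and 299 CPM in d+32het and 276, 272 and 345 CPM in d+56het, against 146.5, 213 and 144 CPM in WT. Every deleted library lay above every WT library, and d+32 lay above the other genotypes. The log2 fold change over WT was 1.24 (SE 0.17, edgeR adjusted p = 0.00273) in d+32, 0.74 (SE 0.17, edgeR adjusted p = 0.0424) in d+32het and 0.84 (SE 0.17, edgeR adjusted p = 0.0101) in d+56het. The d+32 call held in every alternative, the d+56het call ended only with all 47 libraries in 1 fit (edgeR adjusted p = 0.097), and the d+32het call ended in 8 of 13 alternatives, among them without any 1 of the 3 d+32het libraries or WT replicate 1 or 3, with edgeR adjusted p up to 0.238. Itgam shares 3450 exonic bases with the gene model Gm49368 on the same strand, so its counts may be split with it.

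Itgal, the alpha chain of LFA-1, which binds ICAM-1, was lower where the 32 kb enhancer was deleted. Its levels were 205.5, 225 and 208 CPM in d+32 and 285.5, 201 and 292.5 CPM in d+32het, against 491, 454.5 and 514 CPM in WT, with no overlap. The log2 fold change was -1.19 (SE 0.20, edgeR adjusted p = 0.00727) in d+32, kept in every alternative, and -0.90 (SE 0.20, edgeR adjusted p = 0.0347) in d+32het, where the call ended without any 1 of the 6 libraries (edgeR adjusted p up to 0.102). In d+56het, Itgal had 304, 518 and 334 CPM, so that replicate 2 lay above all WT libraries, and the difference of -0.33 (SE 0.19) did not pass (edgeR adjusted p = 0.32). Itga4, which pairs with beta 1 to bind VCAM-1 and with beta 7 to bind MAdCAM-1, had 75.6, 69.3 and 73.9 CPM in d+32, against 41.3, 40.6 and 42.8 CPM in WT. That difference of 0.82 (SE 0.17, edgeR adjusted p = 0.0259) did not pass without any 1 of the 6 libraries (edgeR adjusted p 0.0706 to 0.112).

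Of the 9 integrins, 3 were called in d+32 (Itgam and Itga4 higher, Itgal lower), where 4.52% of all 11604 genes tested were called. In d+32het 2 were called (Itgam higher, Itgal lower) beside 3.71% of all genes, and in d+56het 2 (Itgam higher, Itgae lower) beside 12.4% of all genes. The d+32het count was 1 without WT replicate 2 and 0 without any 1 of the other 5 libraries. The d+56het count was 4 without d+56het replicate 2, and 1 without WT replicate 1, WT replicate 2 or d+56het replicate 3. Itgax did not pass in any genotype: its log2 fold change was 0.02 in d+32 (edgeR adjusted p = 0.99), 0.39 in d+32het (edgeR adjusted p = 0.287) and 0.40 in d+56het (edgeR adjusted p = 0.188). Itgb1, Itgb2, Itgb7 and Itgav were not called in any of the 3, with Itgb2 and Itgb7 near the limit on counts. The 3 comparisons share the WT libraries.

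**Figure D3:**
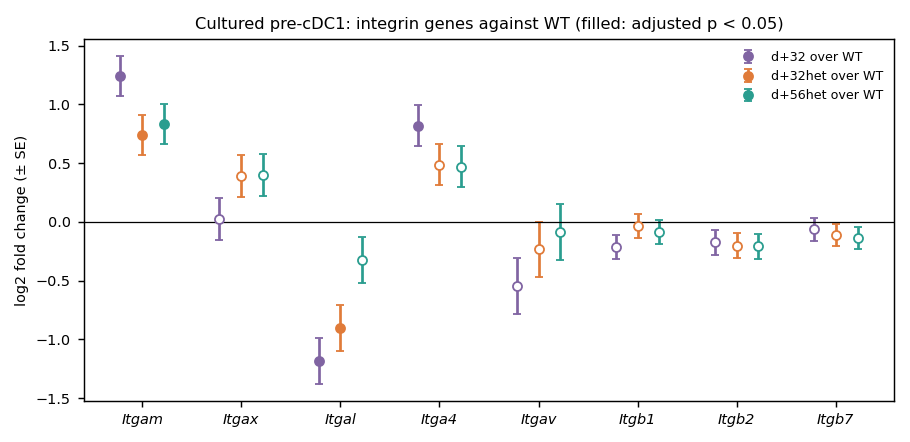
Log2 fold change over WT in cultured pre-cDC1 (vertical axis, bars ± SE, 3 libraries per genotype) for 8 integrin genes, in the order d+32, d+32het, d+56het; filled points have an adjusted p under 0.05. Itgae is left out because d+56het was at 0; Itgam is above 0 and called in all 3 genotypes, while Itgal is called in d+32 and d+32het.

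Other markers moved along with these changes, and their part in them was not tested. The summed level of the 8 cDC2 markers was 1690 to 2130 CPM in d+32, 1010 to 1140 CPM in d+32het and 1480 to 1880 CPM in d+56het, against 273 to 311 CPM in WT, with no marker at 0 in all libraries of a group. The 8 cDC1 markers summed to 593 to 680 CPM in d+32, 756 to 1190 CPM in d+32het and 389 to 468 CPM in d+56het, against 2850 to 3270 CPM in WT. The 6 markers of plasmacytoid DCs (pDC) summed to 761 to 806 CPM in d+32, 1090 to 1330 CPM in d+32het and 1880 to 2770 CPM in d+56het, against 300 to 411 CPM in WT. Of these, 5 were called higher in d+56het and 3 in d+32het, while in d+32 2 were higher and 1 was lower. The 7 monocyte and macrophage markers summed to 463 to 532 CPM in d+32, 475 to 550 CPM in d+32het and 551 to 629 CPM in d+56het, against 298 to 315 CPM in WT. They did not all move 1 way: 3 were called higher and 1 lower in d+32, and 4 higher and 1 lower in both d+32het and d+56het. The shares of all genes called were 4.52%, 3.71% and 12.4%, as above. The 8 mast cell and basophil markers summed to 168 to 562 CPM in d+32, 11.1 to 33.3 CPM in d+32het and 8.43 to 24.7 CPM in d+56het, against 2.52 to 13.9 CPM in WT, with 1 of the 8 at 0 in all libraries of d+32het and 1 in all of WT.

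Between the deletion genotypes, no integrin was called. d+32 against d+32het gave 0 integrins, with 0.0689% of all genes called by edgeR. At an unadjusted p under 0.05, 1 passed, Itgam, at a log2 fold change of 0.50 (SE 0.17, edgeR adjusted p = 0.412), and DESeq2 called 0. For d+56het against d+32het, edgeR called 0 integrins beside 0.526% of all genes. Here 2 had an unadjusted p under 0.05, Itgal at 0.57 (edgeR adjusted p = 0.235) and Itgae, and DESeq2 called 1, Itgae (adjusted p = 0.0352).

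Since Itgam was higher and Itgal lower in d+32 and d+32het pre-cDC1, their ratio within a library was examined, after their values were seen, as a description. Per kb of transcript, counts of Itgam over Itgal were 1.95, 1.92 and 2.36 in d+32 pre-cDC1, 1.14, 1.38 and 1.14 in d+32het and 1.01, 0.585 and 1.15 in d+56het, against 0.333, 0.523 and 0.312 in WT. All deleted libraries lay above all WT libraries. In cultured cDC2 the ratio was 2.59, 3.93 and 3.92, whereas splenic cDC1 had 0.00203. Across the 17 group means, log levels of the pair had a Pearson correlation of -0.83. That value describes groups of cells that share libraries and lineage. Splenic cDC1, a group of 1 library, had both the lowest Itgam (1.985 CPM) and the highest Itgal (1092 CPM). The correlation without that group was not computed.

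**Figure D4:**
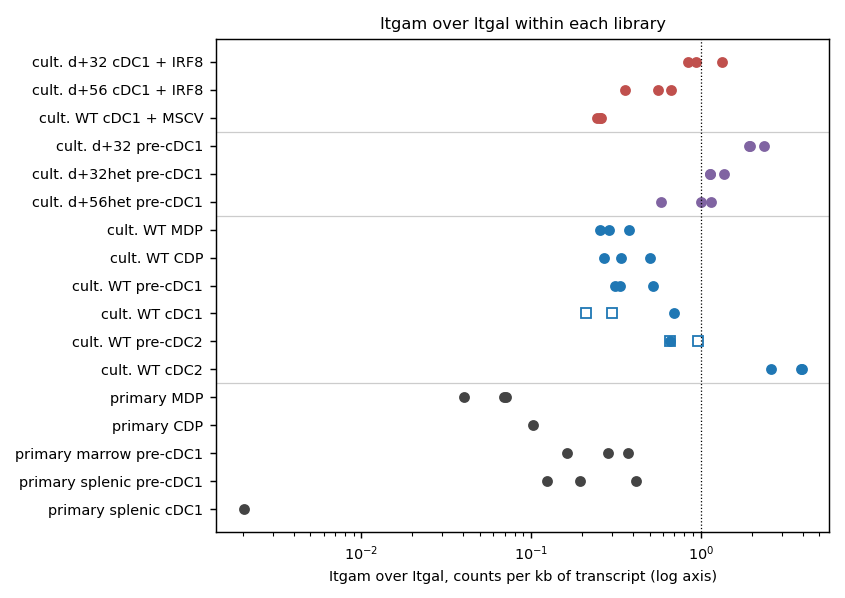
Counts of Itgam over Itgal per kb of transcript (horizontal log axis) in each library, by group; the dotted line marks equal counts per kb, colours and open squares are as in the plot of CPM by group. The d+32 pre-cDC1 and cultured cDC2 libraries lie right of the line, and WT pre-cDC1 lie between 0.312 and 0.523.

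IRF8-rescued cDC1 of both genotypes had more Itgae and Itgam than WT MSCV cDC1. Itgae had 304, 233 and 277 CPM in IRF8-rescued d+32 cDC1 and 254, 253 and 286 CPM in IRF8-rescued d+56 cDC1, against 86.0, 99.2 and 125 CPM in WT MSCV cDC1, with no overlap. The log2 fold change was 1.38 (SE 0.15, edgeR adjusted p = 0.00467) for d+32 and 1.35 (SE 0.15, edgeR adjusted p = 0.00477) for d+56. With all 47 libraries in 1 fit, neither passed (edgeR adjusted p = 0.847 and 0.959), while the size kept at 1.39 and 1.36. Since the groups differ in both genotype and vector, the deletion and the added IRF8 cannot be told apart. Irf8 was 1348 ± 185 CPM in rescued d+32 and 3642 ± 213 CPM in rescued d+56, against 3594 ± 216 CPM in WT MSCV cells (SD, n = 3 each).

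Itgam was also higher in rescued cells. It had 374, 271 and 461.5 CPM in rescued d+32 and 205, 241 and 287 CPM in rescued d+56, against 104, 117 and 74.8 CPM in WT MSCV cDC1. No rescued library overlapped the WT MSCV range. The log2 fold change was 1.89 in d+32 (SE 0.24, edgeR adjusted p = 0.0112), kept in every alternative. In d+56 it was 1.3 (SE 0.24, edgeR adjusted p = 0.0374), and the call ended without any 1 of the 6 libraries (edgeR adjusted p up to 0.118). These were the integrins called, 2 in each comparison, beside 2.07% of all genes called in rescued d+32 (1.13% higher) and 1.65% in rescued d+56 (1.22% higher). The d+56 count was 1 without any 1 of its 6 libraries. Itgax had a log2 fold change of 0.84 in rescued d+56 (edgeR adjusted p = 0.0687, DESeq2 adjusted p = 0.000976) and of 0.37 in rescued d+32 (edgeR adjusted p = 0.371).

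The rescued genotypes set against each other gave 0 integrins by edgeR and 0 by DESeq2, with 1.05% of all genes called by edgeR. At an unadjusted p under 0.05, Itgam was higher in d+32 by 0.59 on the log2 scale (edgeR adjusted p = 0.309) and Itgax was at -0.47 (edgeR adjusted p = 0.307). The cDC2 markers summed to 315 to 542 CPM in rescued d+32 and 184 to 254 CPM in rescued d+56, against 67.7 to 124 CPM in WT MSCV cDC1, and their part was not tested.

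In WT cultures, Itgae appeared at the pre-cDC stage. It had 0, 0 and 0.0340 CPM in MDP and 0 CPM in all 3 CDP libraries, whereas pre-cDC1 had 37.1, 57.1 and 12.4 CPM. The pre-cDC1 libraries held 2840 counts against 0 in CDP, at least 1070-fold higher with the floor of 3 counts over the CDP group (edgeR adjusted p = 1.11e-05). cDC1 had 61.4, 106 and 120 CPM, and the log2 difference of 1.46 from pre-cDC1 (SE 0.62) did not pass (edgeR adjusted p = 0.172). Without the 2 cDC1 libraries of conflicting labels it was 1.75 (edgeR adjusted p = 0.322) and by title 0.58 (edgeR adjusted p = 0.798).

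Itgax was called higher in CDP than in MDP. It had 66.7, 70.8 and 67.6 CPM in CDP, against 39.4, 48.4 and 42.3 CPM in MDP, a log2 fold change of 0.66 (SE 0.14, edgeR adjusted p = 0.0242). It was the only 1 of the 9 called, beside 1.25% of all 12434 genes (0.724% higher). The call and so the count ended without MDP replicate 1 or 3 or any 1 CDP library (edgeR adjusted p up to 0.626 over all alternatives), and with the 4 conflicting libraries placed by title in the same fit (edgeR adjusted p = 0.187). Itgav (0.55, edgeR adjusted p = 0.302) and Itgb2 (0.27, edgeR adjusted p = 0.268) were also higher in CDP at an unadjusted p under 0.05.

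Pre-cDC1 had more of 6 of the 9 integrins than CDP, beside 25% of all genes called and 14.1% called higher. Itgax had 126, 133 and 120 CPM in pre-cDC1, a log2 fold change of 0.86 over CDP (SE 0.14, edgeR adjusted p = 0.000199). Itgav, whose heterodimers bind RGD-bearing ligands such as vitronectin and latent TGF-beta, had 22.2, 18.9 and 16.8 CPM in pre-cDC1, against 10.3, 12.2 and 7.42 CPM in CDP (0.93, SE 0.22, edgeR adjusted p = 0.00486). No library of either gene overlapped between the stages. The beta chains were also higher: Itgb2 by 0.72, Itgb1 by 0.49 and Itgb7 by 0.43 on the log2 scale (SE 0.10 each; edgeR adjusted p = 4.9e-05, 0.001 and 0.00502). Itgb2 had 0.987 to 1 counts per base in pre-cDC1 and 0.624 to 0.697 in CDP, and Itgb7 had 1.23 to 1.27 and 1.01 to 1.08. Both were thus at or near the limit in pre-cDC1, and Itgb7 in CDP too. The size of their change cannot be compared with that of the alpha chains. Itgam, Itgal and Itga4 had log2 differences of 0.05, -0.05 and -0.27 and were not called.

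Between cDC1 and pre-cDC1 no integrin was called by edgeR, beside 7.27% of all genes. At an unadjusted p under 0.05, 2 passed, Itgae and Itgax, and Itgax was at -0.45 (edgeR adjusted p = 0.0615); DESeq2 called 1, Itgax (adjusted p = 0.0312). The edgeR count was 0 as well with the conflicting libraries left out and by title. Pre-cDC2 against CDP gave 6 integrins, beside 21% of all genes: Itgae, Itgax, Itgav, Itgb1 and Itgb2 were higher and Itga4 was lower. Itga4 had 34.2, 28.6 and 28.0 CPM in pre-cDC2, against 55.9, 37.2 and 54.4 CPM in CDP, a log2 difference of -0.72 (SE 0.15, edgeR adjusted p = 0.00247), without overlap. Itgae had 21.9, 14.9 and 39.5 CPM in pre-cDC2, at least 782-fold above CDP (edgeR adjusted p = 2.28e-05). Itgav (0.79, edgeR adjusted p = 0.0165) lost its call with the conflicting libraries left out (0.47, edgeR adjusted p = 0.345), and also without pre-cDC2 replicate 1 or CDP replicate 3. The other 5 calls held with these libraries left out and by title, with edgeR adjusted p up to 0.0396. Markers of other cells moved too in pre-cDC2 against CDP, and their part was not tested: 8 of 8 cDC1 markers were called higher (summed level 1740 to 2960 CPM in pre-cDC2, against 177 to 182 CPM in CDP), 8 of 8 mast cell and basophil markers (127 to 419 CPM, against 1.97 to 5.9 CPM in CDP) and 5 of 6 neutrophil markers (51.6 to 231 CPM, against 0 to 0.935 CPM in CDP).

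cDC2 had the highest Itgam of the cultures. It had 771, 779 and 675 CPM in cDC2, against 266, 300 and 216 CPM in pre-cDC2, a log2 fold change of 1.51 (SE 0.30, edgeR adjusted p = 0.00252). Without the conflicting libraries the fold change was 1.75 (edgeR adjusted p = 0.0057) and by title 2.21 (edgeR adjusted p = 0.000109). Itga4 also rose, to 73.3, 71.3 and 68.4 CPM in cDC2, against 34.2, 28.6 and 28.0 CPM in pre-cDC2 (1.23, SE 0.15, edgeR adjusted p = 6.92e-05). That call held without the conflicting libraries (1.31, edgeR adjusted p = 0.00182) and by title (1.26, edgeR adjusted p = 0.000109). Itgal fell by 0.64 on the log2 scale (SE 0.19, edgeR adjusted p = 0.0265) and Itgae by 1.92 (SE 0.64, edgeR adjusted p = 0.04997). The Itgal call was kept in 8 of 15 alternatives and the Itgae call in 5 of 15, with edgeR adjusted p up to 0.326 for Itgae. Without the conflicting libraries neither of these passed (edgeR adjusted p = 0.199 for Itgal and 0.0814 for Itgae), and by title both did (0.00597 and 0.0193). The count of called integrins was 4, beside 18.2% of all genes, and 2 without pre-cDC2 replicate 1, pre-cDC2 replicate 3 or cDC2 replicate 2.

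Cultured cDC1 and cDC2 differed in 5 of the 9, beside 14.7% of all genes. Itgae had 61.4, 106 and 120 CPM in cDC1, against 2.34, 3.19 and 14.9 CPM in cDC2 (log2 fold change 3.85, SE 0.68, edgeR adjusted p = 0.00154). Itgal had 526, 592 and 468 CPM in cDC1, against 332, 221 and 192 CPM in cDC2 (1.11, SE 0.19, edgeR adjusted p = 0.000886). Neither overlapped. Itgam had 99.01, 160.5 and 293.5 CPM in cDC1, against 771, 779 and 675 CPM in cDC2 (-1.98, SE 0.31, edgeR adjusted p = 0.000331). Itga4 (-1.08, edgeR adjusted p = 0.000143) and Itgax (-0.54, edgeR adjusted p = 0.015) were also lower in cDC1. With the 2 conflicting cDC1 libraries left out, Itgae was 4.15 (edgeR adjusted p = 0.0196), Itgam -1.34 (0.0377) and Itga4 -0.86 (0.0257), while Itgal at 0.91 (0.0844) and Itgax at -0.40 (0.253) did not pass. By title, Itgam was -1.37 (0.00569), Itga4 -1.06 (0.00132) and Itgal 0.77 (0.0457), while Itgae at 2.97 (0.0519) and Itgax at -0.16 (0.691) did not pass. Itgax also lost its call without cDC1 replicate 1 or cDC2 replicate 2.

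In primary marrow, 6 of 9 integrins were higher in pre-cDC1 than in MDP, beside 8.24% of all 13161 genes called and 5.61% called higher. Itgax had 108, 132.5 and 160.5 CPM in pre-cDC1, against 6.56, 11.8 and 4.38 CPM in MDP (log2 fold change 4.13, SE 0.50, edgeR adjusted p = 0.00296). Itgb2 had 124, 116 and 86.8 CPM, against 21.1, 18.9 and 16.9 CPM in MDP (2.5, SE 0.22, edgeR adjusted p = 0.000784). Neither overlapped. Itgb7 had 169, 157 and 109.5 CPM in pre-cDC1, against 36.4, 37.8 and 40.2 CPM in MDP (1.91, SE 0.21, edgeR adjusted p = 0.00198). These 3 calls held in every alternative. Itgam (1.84, SE 0.44, edgeR adjusted p = 0.0405), Itga4 (1.24, SE 0.26, edgeR adjusted p = 0.0254) and Itgb1 (0.81, SE 0.20, edgeR adjusted p = 0.048) did not: each lost its call in 5 of the 6 fits that left out 1 library. The call ended for Itgam without any 1 library but MDP replicate 3 (edgeR adjusted p up to 0.136), and for Itga4 and Itgb1 without any 1 library but pre-cDC1 replicate 3 (up to 0.105 and 0.178). The count was 3 without MDP replicate 1, MDP replicate 2, pre-cDC1 replicate 1 or pre-cDC1 replicate 2. In counts per base, Itgb1 ran from 0.514 to 0.718 in pre-cDC1 and from 0.435 to 0.64 in MDP, so these ranges overlapped. Itgb7 ran from 1.08 to 1.29 in pre-cDC1 and from 0.418 to 0.615 in MDP, and Itgb2 from 0.712 to 0.923 and from 0.159 to 0.321. Both were near the limit in pre-cDC1, so the size of their steps cannot be compared with that of Itgax. Library totals also differed, at 14761801, 17475507 and 32768182 counts in pre-cDC1 and 43084069, 34407548 and 24033885 in MDP.

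Itgae was close to its detection limit in marrow pre-cDC1, at 0.351, 0.0510 and 0.127 CPM, and had 0 counts in primary MDP. It reached 0, 20.97 and 18.04 CPM in splenic pre-cDC1 and 96.8 CPM in the single library of splenic cDC1. Splenic against marrow pre-cDC1 gave 0 integrins by edgeR, beside 1.88% of all genes, with 2 at an unadjusted p under 0.05 and 2 called by DESeq2. Those were Itga4 at 92.2 ± 3.93 CPM in spleen, against 50.1 ± 16.5 CPM in marrow (SD, n = 3 each; log2 fold change 0.83, edgeR adjusted p = 0.209, DESeq2 adjusted p = 0.026), and Itgae (edgeR adjusted p = 0.258, DESeq2 adjusted p = 0.0109). Without splenic replicate 1, the library at 0, edgeR called 1, Itgae (adjusted p = 0.0205). Neutrophil markers summed to 63 to 104 CPM in marrow pre-cDC1, against 0.189 to 9.97 CPM in primary MDP (2 of 6 at 0), and B cell markers to 2.91 to 72.8 CPM in splenic pre-cDC1, against 0.051 to 0.253 CPM in marrow pre-cDC1. Their part in these differences was not tested.

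Cultured and primary MDP differed in 5 of the 9 integrins, all higher in culture, beside 8.28% of all 12043 genes called and 5.38% called higher. Itgax had 39.4, 48.4 and 42.3 CPM in cultured MDP, against 6.56, 11.8 and 4.38 CPM in primary MDP (log2 fold change 2.49, SE 0.30, edgeR adjusted p = 0.000581). Itgam had 109, 126.5 and 154 CPM in culture, against 39.9, 47.04 and 13.7 CPM (1.93, SE 0.37, edgeR adjusted p = 0.0098). No library overlapped in either gene. Itgb2 (1.49, SE 0.15, edgeR adjusted p = 0.0002), Itga4 (1.06, SE 0.21, edgeR adjusted p = 0.0123) and Itgb7 (1.03, SE 0.16, edgeR adjusted p = 0.00268) were called as well. All 5 calls held in every alternative. Itgb7 was near the limit on counts in cultured MDP, at 0.963 to 1.03 counts per base, against 0.418 to 0.615 in primary MDP. The size of its difference is therefore restricted. Of the 8 cDC1 markers, 7 were also called higher, with a summed level of 346 to 365 CPM in cultured MDP, against 94.1 to 106 CPM in primary MDP, where 2 were at 0. Their part in the difference was not tested.

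Between cultured and primary marrow pre-cDC1, Itgae was the only integrin called, beside 21.9% of all genes called and 10.7% called higher: it averaged 35.5 ± 22.4 CPM in culture and 0.176 ± 0.156 CPM in marrow (SD, n = 3 each; log2 fold change 7.68, SE 0.85, edgeR adjusted p = 0.000392). DESeq2 called 2, with Itgav added (adjusted p = 0.044), and edgeR called 3 without marrow replicate 3. Beside Itgae, 7 of 8 cDC1 markers were called higher in culture, with a summed level of 2850 to 3270 CPM in cultured and 411 to 456 CPM in marrow pre-cDC1, and their part was not tested. The difference of the stage step between culture and marrow was tested as an interaction, in which edgeR called 4 integrins, all lower in culture, beside 11.4% of all genes called and 6.64% called lower. The step between MDP and pre-cDC1 was smaller in culture for Itgax (-2.60), Itgb2 (-1.503), Itga4 (-1.35) and Itgb7 (-1.28), on the log2 scale. For Itgam the interaction of -1.49 did not pass in edgeR (adjusted p = 0.0883) and passed in DESeq2 (adjusted p = 0.0339). For Itgae, edgeR gave an interaction of 5.92 with an SE of 71.9 that did not pass (adjusted p = 0.99), and DESeq2 called it higher in culture at 6.66 (SE 2.04, adjusted p = 0.00883). Both MDP groups had at most 1 count of Itgae per library, so the size of that step is poorly determined. DESeq2 thus called 6 integrins, 5 lower and 1 higher in culture. Itgb2 and Itgb7 in pre-cDC1 of both sources were near the limit on counts, at 0.712 to 1 and 1.08 to 1.29 counts per base, as was Itgb7 in cultured MDP at 0.963 to 1.03, so the size of their steps in culture cannot be read from these counts.

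**Figure D5:**
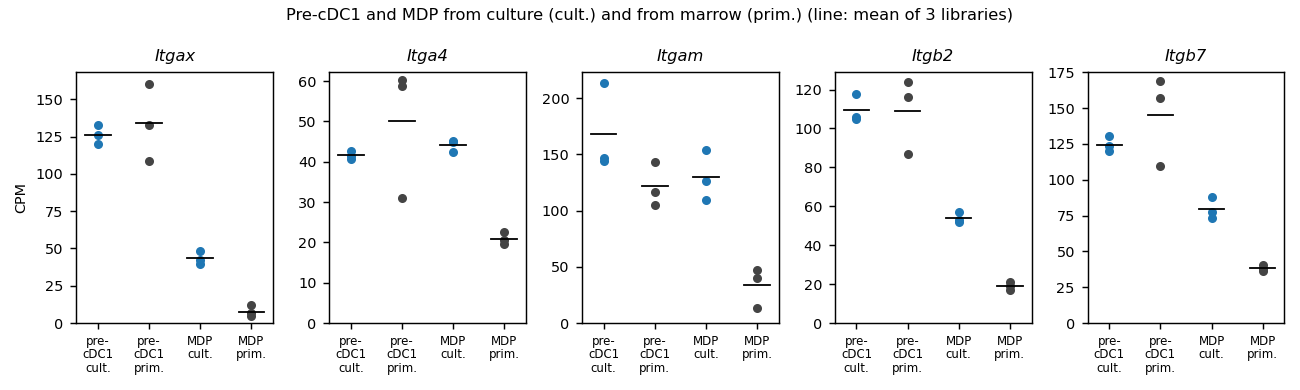
CPM of 5 integrin genes (vertical axes) in pre-cDC1 and MDP from culture (blue) and from marrow (black), 1 point per library with lines at the mean of 3. Primary MDP are lowest in each panel, and the ranges of cultured and primary pre-cDC1 overlap in every panel but that of Itgam.

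The remaining integrin genes and the machinery around them were described with lists of 17 other subunits, 29 genes of integrin activation and 18 ligand genes. Of the other subunits, 10 could be tested in pre-cDC1 genotypes. None was called in d+32, d+32het or d+56het by edgeR, beside 4.52%, 3.71% and 12.4% of all genes. At an unadjusted p under 0.05, 1, 3 and 6 of them passed, and DESeq2 called 1, 2 and 6. DESeq2 also called more of all genes than edgeR in each of these comparisons. The median log2 fold changes of these subunits were -0.19, -0.25 and -0.69, with the median over all genes at 0 in d+32 and -0.0061 in d+32het. In pre-cDC1 against CDP, 3 of 10 were higher and 2 lower, beside 25% of all genes called. Itga1, a collagen-binding alpha chain, averaged 57.3 CPM in pre-cDC1 and 24.1 CPM in CDP (1.22, edgeR adjusted p = 8.16e-06). Itgb3, a partner of alpha V, averaged 3.05 CPM in pre-cDC1 and 19.1 CPM in CDP (-2.67, edgeR adjusted p = 0.000404).

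Among activation genes, Fyb changed in all 3 genotypes. This gene encodes ADAP, an adaptor that links immune receptors to integrin activation. It averaged 74.75 CPM in d+32, 65.2 CPM in d+32het and 106 CPM in d+56het, against 24.8 CPM in WT (log2 fold changes 1.60, 1.40 and 2.10, edgeR adjusted p = 0.000382, 0.00094 and 3.58e-05). Of 24 tested, 1 was higher and 3 were lower in d+32, 2 higher and 3 lower in d+32het and 4 higher and 3 lower in d+56het, beside 4.52%, 3.71% and 12.4% of all genes called. Flna, encoding filamin A, which binds beta chain tails, was lower in all 3, at log2 fold changes of -0.46, -0.53 and -0.66 (edgeR adjusted p = 0.0182, 0.0113 and 0.00126). Rasgrp2, encoding the Rap1 exchange factor CalDAG-GEFI, averaged 94.9 CPM in d+56het and 25.3 CPM in WT (1.92, edgeR adjusted p = 0.00109). In pre-cDC1 against CDP, 11 of 27 were higher and 4 lower, beside 25% of all genes called, with Zyx, encoding the focal adhesion protein zyxin, at 1691 CPM in pre-cDC1 and 456 CPM in CDP (1.86, edgeR adjusted p = 7.42e-10).

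Among ligand genes, Cdh1, encoding E-cadherin, the ligand of CD103, was higher in all 3 genotypes. It averaged 34.5 CPM in d+32, 33.15 CPM in d+32het and 25.5 CPM in d+56het, against 10.4 CPM in WT (log2 fold changes 1.73, 1.68 and 1.3, edgeR adjusted p = 0.00212, 0.00319 and 0.00411). In cDC1 it averaged 1.46 CPM, against 46.9 CPM in cDC2 (-4.95, edgeR adjusted p = 1.78e-05). Of 11 ligand genes tested, 3 were higher and 1 lower in d+32, 1 higher in d+32het and 2 higher and 1 lower in d+56het, beside the same 4.52%, 3.71% and 12.4% of all genes. Spp1, encoding osteopontin, a ligand of alpha V and alpha 4 integrins, averaged 480 CPM in d+32 and 1070 CPM in WT (-1.15, edgeR adjusted p = 0.0152). Icam1, the LFA-1 ligand, averaged 35.3 CPM in pre-cDC1 and 22.1 CPM in CDP (0.65, edgeR adjusted p = 6.71e-05). In primary marrow, 2 of 14 were higher in pre-cDC1 than in MDP, beside 5.61% of all genes called higher, among them Fn1, encoding fibronectin, at 1794 CPM in pre-cDC1 and 41.2 CPM in MDP (5.43, edgeR adjusted p = 0.00293).

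Over the 17 group means, the genes most like each integrin were ranked by Pearson correlation of log2 levels among 9573 candidates, as a description. Klf6 was closest to Itgb2 (r = 0.99), Ahnak to Itgb7 (0.98), Slc2a6 to Itgam (0.98), Agpat3 to Itgae (0.97) and Jak2 to Itgax (0.97). Itgav was most like Dusp16 (0.92), Itgb1 most like Vhl (0.92), Itgal most like Strbp (0.87) and Itga4 most like Zmym5 (0.87). Among the integrins, Itgb2 and Itgb7 had r = 0.92 and Itgax and Itgb2 had r = 0.87. The points share libraries and depth, and Itgb2 and Itgb7 are both near the limit on counts.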

How the data were processed

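Per the labels' protocols, cDNA was amplified from small cell numbers (SMART-Seq HT) and tagmented (Nextera XT). Neither kit marks strand, so genes on opposite strands that share exons (634 bases of Itgav with Gm13684 and 1124 bases of Itga4 with Cerkl, at most 4.09 CPM) cannot be separated. Each deposited file holds RSEM-style expected counts by gene, per the file headers. Tools named in the submitters' processing notes are RSEM 1.3.3, STAR 2.7.7a and Picard 2.25.0, and builds are GRCm38 and mm10. The annotation, and whether duplicates were removed, are not given in the sources used here.

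Expected counts (22 to 66 values per file not whole) were rounded and tested with edgeR 4.0.16 in R 4.3.3: quasi-likelihood F test, TMM scaling, edgeR's default low-count filter and Benjamini-Hochberg adjustment at 0.05. Groups were fitted by family (pre-cDC1 genotypes, rescue cDC1, cultured stages, primary cells, and culture with marrow), with group as the model's only term. Alternatives were DESeq2 1.42.0, its size factors, no filter, a replicate block, only the groups compared, all 47 libraries in 1 fit, other placements of the conflicting libraries, primary replicate 3 left out, each library left out and, added after seeing the data, scaling from genes with 2 or more transcripts. The scripts were tested on simulated data. No pair of libraries in a group agreed within sampling noise (lowest chi-square per degree of freedom 18.03). Named genes were the 9 integrins, the 2 genes most like each over groups at 10 CPM or more, and list genes with the lowest adjusted p, of which those printed are a selection. The members and lists were chosen with earlier results of these data known. Sequences are from RefSeq tables (GRCm38.p6), which hold promoters of 6 of the 9 genes.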

Additional observations from a re-analysis of the deposited data

Results flagged for a closer look

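In 4 integrin genes the step between MDP and pre-cDC1 differed between culture and marrow, by a test of that difference itself. Of all genes, edgeR called 11.4% in that test, and 6.64% lower in culture. The interaction, pre-cDC1 over MDP in culture minus the same in marrow, was -2.60 on the log2 scale for Itgax (SE 0.41, edgeR adjusted p = 0.00348), -1.35 for Itga4 (SE 0.30, edgeR adjusted p = 0.0166), -1.503 for Itgb2 (SE 0.21, edgeR adjusted p = 0.00214) and -1.28 for Itgb7 (SE 0.22, edgeR adjusted p = 0.00597). All 4 calls were kept in each of 20 alternatives, with edgeR or DESeq2 adjusted p up to 0.0119, 0.043, 0.00866 and 0.0194. DESeq2 also called Itgae, the other way (6.66, adjusted p = 0.00883), and Itgam (-1.47, adjusted p = 0.0339). Itgb2 and Itgb7 in pre-cDC1 of both sources, and Itgb7 in cultured MDP, were near the limit on counts per base, which restricts their steps in culture. The same interaction was called lower in 5 of 8 cDC2, 3 of 6 pDC and 3 of 7 monocyte and macrophage markers, and higher in 0. Of 8 cDC1 markers, 3 were higher and 2 lower, and of 6 progenitor markers, 2 were higher and 3 lower. Among 6 neutrophil markers, edgeR called 0 (2 at an unadjusted p under 0.05, 1 by DESeq2). These counts stand beside the same shares of all genes. The cDC2 markers summed to 273 to 311 CPM in pre-cDC1 and 514 to 774 CPM in MDP from culture, and to 1190 to 1410 CPM in pre-cDC1 and 697 to 1000 CPM in MDP from marrow. The pDC markers summed to 300 to 411 CPM in pre-cDC1 and 591 to 709 CPM in MDP from culture, and to 852 to 1790 CPM in pre-cDC1 and 423 to 484 CPM in MDP from marrow. Their part in the difference was not tested.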

How the results depend on the processing

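Of 49 calls of an integrin in a comparison, 30 held in every alternative, 19 were lost in 1 or more and 0 reversed; where no value shows it, the cause was not tested. In 0 of 18 comparisons did every pair of same-numbered libraries correlate above 0.1 (range -0.174 to 0.193). In 4, every library correlated best with its own number. Replicate 3 held both ends of that range, 0.193 in splenic against marrow pre-cDC1 and -0.174 in marrow pre-cDC1 against MDP. Whether same-numbered libraries share more than a number, such as a batch, is not settled by these values. With the replicate block the counts of called integrins were 0 in d+32het (main 2), 1 in d+56het (2), 1 in rescued d+56 (2) and 1 in cDC1 against pre-cDC1 (0). With only the groups compared they were 0 in d+32het, 0 in CDP against MDP (1) and 2 in cDC2 against pre-cDC2 (4). With all 47 libraries in 1 fit they were 1 in d+56het, 0 in rescued d+56, 1 in rescued d+32 (2), 0 in CDP against MDP, 2 in cDC2 against pre-cDC2 and 2 in splenic against marrow pre-cDC1 (0). These lists are a selection. In that last fit edgeR also called Itgae in d+32 and d+32het. Itgav there lost its call in pre-cDC1 and in pre-cDC2 against CDP (edgeR adjusted p = 0.0514 and 0.129), and Itgax in cDC1 against cDC2 (edgeR adjusted p = 0.265). DESeq2 called 4 integrins in d+32 (main 3), 3 in d+32het, 1 in d+56het against d+32het (0) and 3 in rescued d+56. It called 7 in pre-cDC2 against CDP (6), 1 in cDC1 against pre-cDC1 and 2 in splenic against marrow pre-cDC1. In cultured against marrow pre-cDC1 it called 2 (1) and in the interaction 6 (4). Placed by title, the conflicting libraries gave 0 in CDP against MDP and 3 in cDC1 against cDC2 (5); left out, they gave 2 in cDC2 against pre-cDC2 and 3 in cDC1 against cDC2. Scaling from genes with 2 or more transcripts gave 1 in cDC1 against pre-cDC1, and leaving out primary replicate 3 gave 3 in cultured against marrow pre-cDC1.

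Leaving out each library in turn gave 0 to 1 integrins in d+32het, 1 to 4 in d+56het, 1 in rescued d+56, 0 to 1 in CDP against MDP, 2 to 4 in cDC2 against pre-cDC2, 3 to 5 in marrow pre-cDC1 against MDP, 0 to 1 in splenic against marrow pre-cDC1 and 1 to 3 in cultured against marrow pre-cDC1. Counts over all genes moved more. By edgeR and DESeq2 they were 524 and 1134 in d+32, 431 and 1293 in d+32het, 1438 and 2427 in d+56het, 8 and 259 in d+32 against d+32het, 61 and 697 in d+56het against d+32het, 192 and 914 in rescued d+56, 241 and 1109 in rescued d+32, 122 and 741 between them, 155 and 523 in CDP against MDP, 904 and 1644 in cDC1 against pre-cDC1, 1085 and 2269 in marrow pre-cDC1 against MDP, 247 and 1098 in splenic pre-cDC1, 997 and 1892 in cultured MDP and 1376 and 2416 in the interaction. With all 47 libraries in 1 fit they were 1699 (main 3112) in pre-cDC1 against CDP, 1308 (2605) in pre-cDC2 against CDP, 804 (2266) in cDC2 against pre-cDC2 and 808 (1828) in cDC1 against cDC2. Depth limits Itgae below the floor of 0.0377 CPM in d+56het, and the limit on counts per base restricts what Itgb1, Itgb2 and Itgb7 can show.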
